A study of Mus musculus with 6 samples.

Results

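Cytosolic heat shock proteins keep other proteins folded, and 10 of their genes, chosen by symbol, were followed here in bone-marrow-derived macrophages (BMDMs) under high salt: the inducible HSP70 genes Hspa1a and Hspa1b, the constitutive HSP70 gene Hspa8, the HSP110 genes Hspa4, Hspa4l and Hsph1, the cochaperones Dnajb1 and Bag3, and the HSP90 genes Hsp90aa1 and Hsp90ab1. All 10 were among the 15903 genes tested, those with 10 or more reads over all libraries. BMDMs are macrophages grown from bone marrow with the growth factor M-CSF. Marrow came from 3 Cx3cr1GFP mice on a C57BL/6J background, in which GFP sits in the locus of the receptor gene Cx3cr1, so control and salt-treated cells both carried this allele, and zygosity and age are not given in the sources used here. Cells of each mouse were left unstimulated (control, n = 3) or exposed to 62 mM excess NaCl for 24 h (NaCl, n = 3), and the adherent cells were sequenced. The 6 libraries hold no osmotic control without salt and no earlier time, and protein was not measured.

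HSP70 proteins bind exposed stretches of unfolded proteins and release them in a cycle driven by ATP. J-domain proteins such as DNAJB1 start the cycle by stimulating ATP hydrolysis, and the HSP110 proteins and BAG3 act as nucleotide exchange factors that let the client go. HSP90 takes over many clients from HSP70 for the last steps of folding. In unstressed cells most HSP70 is the constitutive form encoded by Hspa8, whereas Hspa1a and Hspa1b are switched on by heat and other stress through heat shock factor 1 (HSF1), which binds heat shock elements made of repeated GAA units in alternating orientation. Hypertonic salt is known to raise inducible HSP70 in cells of the kidney medulla.

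Hspa1a and Hspa1b lie close to each other on chromosome 17, and their promoters are shown here because these were the members that changed and because their upstream sequences are near copies of each other. RefSeq windows (GRCm38.p6) reaching 250 bases upstream of the start site were at hand for 7 of the 10 members, and none for Hspa8, Hsp90aa1 and Hsp90ab1. The windows of Hspa1a (chr17:34972157-34972406, minus strand) and Hspa1b (chr17:34959239-34959488, minus strand) differed at 3 of 250 bases. The Hsph1 window (chr5:149636337-149636586, minus strand) is given as a further member with a heat shock element match, and the Dnajb1 window (chr8:83607925-83608174, plus strand) as one without. All are written 5' to 3' and end at the base before the start site, and the capitals mark the matches to GAANNTTC or TTCNNGAA, the inward and the outward pair of GAA units.
Hspa1a: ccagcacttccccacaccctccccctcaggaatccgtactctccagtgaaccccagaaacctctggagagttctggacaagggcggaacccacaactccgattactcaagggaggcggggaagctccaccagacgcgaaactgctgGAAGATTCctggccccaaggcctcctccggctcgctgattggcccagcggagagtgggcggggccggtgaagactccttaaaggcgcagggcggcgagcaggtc
Hspa1b: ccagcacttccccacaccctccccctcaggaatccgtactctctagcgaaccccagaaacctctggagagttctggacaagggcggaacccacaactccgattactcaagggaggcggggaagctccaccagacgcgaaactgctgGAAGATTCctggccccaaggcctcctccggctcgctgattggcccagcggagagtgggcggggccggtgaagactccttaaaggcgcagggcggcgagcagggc
Hsph1: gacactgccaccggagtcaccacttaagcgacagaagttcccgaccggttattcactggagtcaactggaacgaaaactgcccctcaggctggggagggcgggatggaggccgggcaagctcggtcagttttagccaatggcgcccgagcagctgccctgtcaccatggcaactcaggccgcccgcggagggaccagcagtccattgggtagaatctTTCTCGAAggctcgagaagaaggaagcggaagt
Dnajb1: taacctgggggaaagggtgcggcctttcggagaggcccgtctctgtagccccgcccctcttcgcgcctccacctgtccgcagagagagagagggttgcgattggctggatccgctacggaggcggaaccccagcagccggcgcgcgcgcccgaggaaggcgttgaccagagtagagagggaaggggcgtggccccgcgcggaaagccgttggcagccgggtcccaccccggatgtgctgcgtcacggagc
In Hspa1a and Hspa1b, GAANNTTC began at base -104 and a CCAAT box, which binds the factor NF-Y, at base -67. Hsph1, counted from the more upstream of its start sites, held TTCNNGAA at base -33 and CCAAT boxes at bases -116 and -47. Dnajb1 held CCAAT at base -151 and, downstream of the start site, at base 12. Downstream of the start site, a GAANNTTC match began at base 43 of Bag3 and base 42 of Hsph1, and TTCNNGAA at base 37 of Hsph1. Neither pattern was found in the windows of Dnajb1, Hspa4 and Hspa4l. Both patterns read the same on either strand, and of all 32851 mouse promoter windows of 300 bases, 7.86% held GAANNTTC, 8.52% held TTCNNGAA and 37.4% held CCAAT on either strand. The tonicity element, bound by the osmotic factor NFAT5, had a match in 1 of the 7 members with a window. It lay at base 40 of Hsph1, where it overlaps the heat shock element matches. Of all windows 4.96% held the element, and sequence beyond the windows was not searched. A match is a run of letters and no evidence of binding.

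The 10 genes differed widely in level before any salt was added. Per kilobase of exon, Hsp90ab1, the constitutive HSP90, led in control cells at 406.6 ± 52.1 CPM per kb (SD, n = 3; CPM are reads scaled to library size), followed by Hspa8 at 152.0 ± 8.04. Hspa4 at 47.8 ± 8.71, Hsp90aa1 at 47.1 ± 9.92 and Bag3 at 41.8 ± 8.80 CPM per kb overlapped in their range over libraries, as did Dnajb1 at 11.6 ± 0.776 and Hsph1 at 9.31 ± 2.05. Hspa4l stood at 3.25 ± 0.420 CPM per kb. Hspa1b at 0.452 ± 0.108 and Hspa1a at 0.176 ± 0.0203 closed the order, so the inducible genes had the lowest levels in unstimulated macrophages. With NaCl, Hspa1b moved above Hspa4l, to 6.27 ± 2.33 against 3.33 ± 0.522 CPM per kb, and Hspa1a stayed last at 1.55 ± 0.594. This order holds per kilobase of all exons, although reads from sequence that occurs in several genes are not counted. Per 1000 windows of 75 bases found in 1 gene alone, a scale chosen after the data were seen, Hspa1a and Hspa1b were also the lowest in controls, at 0.471 ± 0.0543 and 1.05 ± 0.2503 CPM. With NaCl, Hspa1b reached 14.6 ± 5.42 CPM on that scale, with a range that included Dnajb1 (12.3 ± 0.0566) and overlapped Hsph1 (11.5 ± 2.75), and Hspa1a reached 4.15 ± 1.59, overlapping Hspa4l (3.32 ± 0.522). Hsp90aa1 stood above Hspa4 on it in controls, at 81.2 ± 17.1 against 48.5 ± 8.83.

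**Figure D1:**
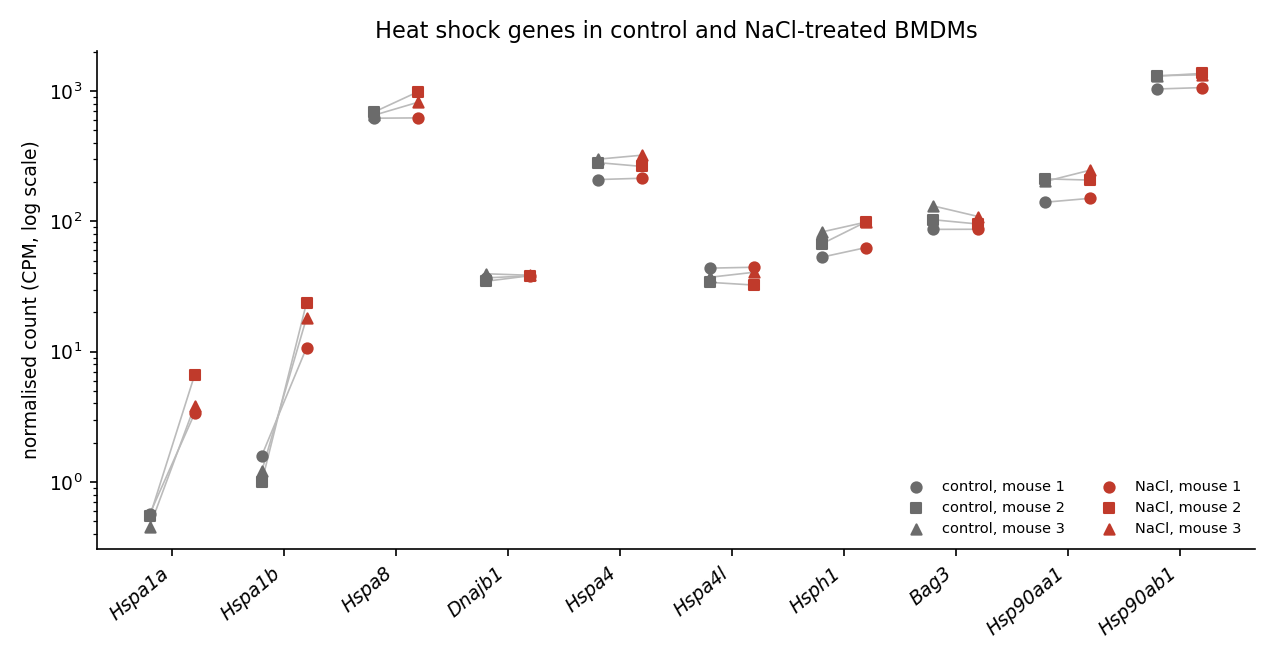
Normalised counts (CPM, log axis) of the 10 heat shock genes in each library, with grey control and red NaCl points and a line joining the libraries of 1 mouse. Hspa1a and Hspa1b have all 3 NaCl points above all 3 control points, and the other 8 genes have overlapping groups. The share of all genes tested whose groups separate is not given here, so no weight rests on this count.

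To ask which heat shock genes responded to salt, the NaCl libraries were compared with the controls across all genes by edgeR's quasi-likelihood test with Benjamini-Hochberg adjustment. Of the 10 members, 2 rose, Hspa1a and Hspa1b, and 0 fell, against 0.478% of all genes tested that rose and 0.176% that fell. Entering the mouse as a replicate block gave the same member counts, against 4.60% and 4.30% of all genes, and they were the same in DESeq2, against 1.54% and 0.975%. At an unadjusted p under 0.05, 2 members were higher and 0 lower without the block, against 6.63% and 6.01% of all genes tested, and 4 and 0 with it, against 10.7% and 11.3%. The median log2 fold change of the 10 members was 0.08, and that of the 8 members other than Hspa1a and Hspa1b was 0.05, beside -0.01 for all genes tested. In bulk RNA, a change in the number of cells making a transcript and a change in transcript per cell cannot be told apart, for rises as for falls.

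Hspa1b had 14, 11 and 24 reads in control libraries 1, 2 and 3 and 96, 262 and 76 in the NaCl libraries, or 1.59, 0.996 and 1.21 CPM against 10.7, 23.7 and 18.2 CPM. Every NaCl library lay above every control library, in spite of NaCl library 3 having the fewest reads of all. The rise was 14.0-fold, a log2 fold change of 3.81 ± 0.34 (SE; 95% interval 3.04 to 4.58; adjusted p = 0.00191 in edgeR). Over the 17 alternative fits the log2 fold change was 3.47 to 4.20 and the adjusted p at most 0.0392.

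Hspa1a, whose protein is nearly identical, had 5, 6 and 9 control reads and 30, 73 and 16 NaCl reads, or 0.569, 0.544 and 0.454 CPM against 3.35, 6.62 and 3.83 CPM. Again the groups did not overlap. The rise was 9.03-fold, a log2 fold change of 3.17 ± 0.39 (SE; 95% interval 2.30 to 4.05; adjusted p = 0.00997 in edgeR). The call depended on single libraries: the adjusted p was 0.0905 without control replicate 2, 0.0853 without control replicate 3 and 0.0575 without NaCl replicate 3, with the log2 fold change between 3.06 and 3.27 in those fits.

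How the reads were divided between the 2 genes bears on these values. Of the 75-base windows of the Hspa1a transcript 61.7% also occurred in another gene, and of those of Hspa1b 55.8%, all of the latter in Hspa1a. Reads that fit both places are not counted by STAR, so each deposited count comes from the windows found in 1 gene, chiefly the last stretch of the transcript, which begins at base 2172 of Hspa1a and base 2038 of Hspa1b. A further limit for Hspa1a is that 19.0% of its exonic bases overlap Gm20481 on the opposite strand, in a library without strand information. The ratio of Hspa1b to Hspa1a reads per unique window was 2.57, 1.69 and 2.45 in controls and 2.94, 3.30 and 4.37 with NaCl. Hspa1b thus gave more reads than Hspa1a in all 6 libraries, and whether the ratio changed with NaCl was not tested.

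**Figure D2:**
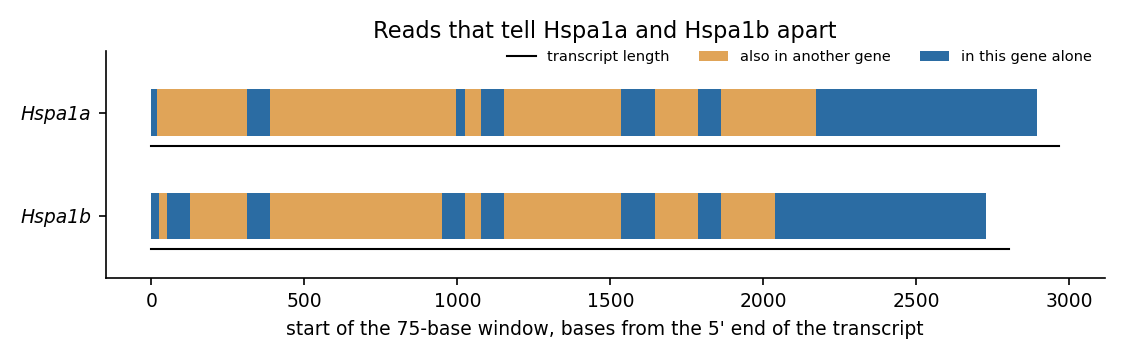
Windows of 75 bases along the Hspa1a and Hspa1b transcripts by their start (bases from the 5' end), in orange where the same 75 bases occur in another gene and in blue where they occur in that gene alone, with a black line for the transcript length. Shared windows fill most of the 5' part of both transcripts, and the unique windows gather in the 3' end, from base 2172 in Hspa1a and base 2038 in Hspa1b.

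Both genes were also summed. The sum covers the reads that were counted for either gene and leaves out those from the shared windows. It was 19, 17 and 33 reads in control libraries and 126, 335 and 92 with NaCl, or 2.16, 1.54 and 1.66 CPM against 14.1, 30.4 and 22.0 CPM. The counted reads of inducible HSP70 were thus 12.5-fold higher with NaCl, a log2 fold change of 3.65 ± 0.32 (SE; 95% interval 2.94 to 4.36; adjusted p = 0.00134 in edgeR, with 0.472% of the 15902 features rising in that fit and 4.60% with the block). It passed the threshold in all 17 alternative fits, with a log2 fold change of 3.33 to 3.99 and an adjusted p of 0.0331 at most.

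The size of the rise differed between mice. Within mouse 1 the CPM ratio of NaCl to control was 6.52 (95% exact interval 4.01 to 11.2), within mouse 2 it was 19.7 (12.1 to 34.3), and within mouse 3 it was 13.2 (8.81 to 20.4). The intervals of mouse 1 and mouse 2 did not overlap. They cover counting error only, and with 1 library per mouse and condition there is no replicate of a mouse.

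Hspa8, the constitutive HSP70 gene, had 620, 689 and 652 CPM in controls and 623, 994 and 824 CPM with NaCl. The groups overlapped through mouse 1, whose NaCl library was near its control at a ratio of 1.01 (95% exact interval 0.969 to 1.04). The ratio was 1.44 (1.40 to 1.49) in mouse 2 and 1.26 (1.22 to 1.31) in mouse 3. These intervals again cover counting error only, not differences between cultures or libraries. The log2 fold change of 0.32 (95% interval -0.06 to 0.70) did not pass the test in edgeR (adjusted p = 0.486), nor did 0.29 (0.04 to 0.54) with the mouse as a block (adjusted p = 0.150). Of its windows 33.0% are shared with other genes, chiefly the pseudogene Gm15459.

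The inducible and constitutive genes were therefore set against each other within each library, where library scaling plays no part. Controls held 287, 447 and 392 Hspa8 reads for each read of Hspa1a plus Hspa1b, and NaCl libraries 44.3, 32.7 and 37.4. The log2 ratio of inducible to constitutive HSP70 was -8.53 ± 0.33 in controls and -5.24 ± 0.22 with NaCl (SD, n = 3). The difference of 3.29 had the same direction in all 3 mice. An exact permutation test over libraries (two-sided) gave p = 0.1, the smallest that 3 against 3 libraries allow. The exact sign-flip test within mice, which keeps the pairing, gave p = 0.25, also the smallest it allows. Even so, the inducible pair made up 0.612%, 0.970% and 0.725% of the counted reads on the 10 genes with NaCl, against 0.0968%, 0.0564% and 0.0603% in controls. These shares and ratios leave out reads from shared windows, which are 61.7% of Hspa1a and 55.8% of Hspa1b windows but 33.0% for Hspa8. Per 1000 windows found in 1 gene alone, Hspa1a, Hspa1b and Hspa8 stood at 0.471, 1.05 and 198 CPM in controls. With NaCl they stood at 4.15, 14.6 and 246 CPM.

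The HSP110 genes, which encode large relatives of HSP70 that serve as its exchange factors, gave no call. Hsph1, the heat-inducible member, had 53.1, 67.0 and 82.9 CPM in controls and 63.0, 99.4 and 98.9 CPM with NaCl. It was higher in 3 of 3 mice, by ratios of 1.19, 1.48 and 1.19, though the groups overlapped. Its log2 fold change was 0.36 (95% interval -0.12 to 0.83; adjusted p = 0.535 in edgeR), and with the mouse as a block 0.36 (0.11 to 0.61; adjusted p = 0.0613). Hspa4 had 210, 283 and 300.2 CPM in controls and 215, 264 and 323 CPM with NaCl, higher in 2 mice and lower in 1, and its log2 fold change was 0.01 (95% interval -0.40 to 0.43). Hspa4l, best known from testis, had 43.8, 34.1 and 37.2 CPM against 44.5, 32.5 and 40.7 CPM, and a log2 fold change of 0.03 (95% interval -0.34 to 0.40). The control and NaCl groups overlapped in both genes.

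Dnajb1, the J-domain partner of HSP70 and a standard target of HSF1, had 36.8, 34.7 and 39.6 CPM in controls and 38.2, 38.3 and 38.6 CPM with NaCl. Its fold change was 1.03 with a 95% interval of 0.847 to 1.26 (adjusted p = 0.919 in edgeR), which leaves out a rise of the size seen for Hspa1a and Hspa1b. Bag3, an exchange factor that hands damaged proteins to autophagy and is likewise a heat shock gene, had 86.9, 103 and 131 CPM in controls and 87.1, 95.5 and 109 CPM with NaCl. It was the only member with a log2 fold change below 0 in the unpaired fit, at -0.15 (95% interval -0.52 to 0.23; adjusted p = 0.772), and was lower in 2 of 3 mice. Without control replicate 3 its value turned to 0.04, so no direction can be given.

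The HSP90 genes took up 50.4% to 55.6% of the reads on the 10 members. Hsp90ab1, the constitutive form, had 1039, 1307 and 1312 CPM in controls and 1065, 1369 and 1338 CPM with NaCl, a fold change of 1.03 (95% interval 0.812 to 1.31; adjusted p = 0.941 in edgeR). Hsp90aa1, the stress-inducible form, had 140, 212 and 203 CPM in controls and 150, 208 and 247 CPM with NaCl, a fold change of 1.09 (95% interval 0.787 to 1.50; adjusted p = 0.862). Of the Hsp90aa1 windows 42.8% are shared with other genes, chiefly Gm12346. Within a library, Hsp90aa1 made up 11.9%, 14.0% and 13.4% of HSP90 reads in controls and 12.4%, 13.2% and 15.6% with NaCl. The log2 ratio of Hsp90aa1 to Hsp90ab1 was -2.73 ± 0.14 in controls and -2.66 ± 0.20 with NaCl (SD, n = 3; exact permutation test, two-sided, p = 0.7; exact sign-flip test within mice, p = 0.75). It was higher with NaCl in mice 1 and 3 and lower in mouse 2.

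**Figure D3:**
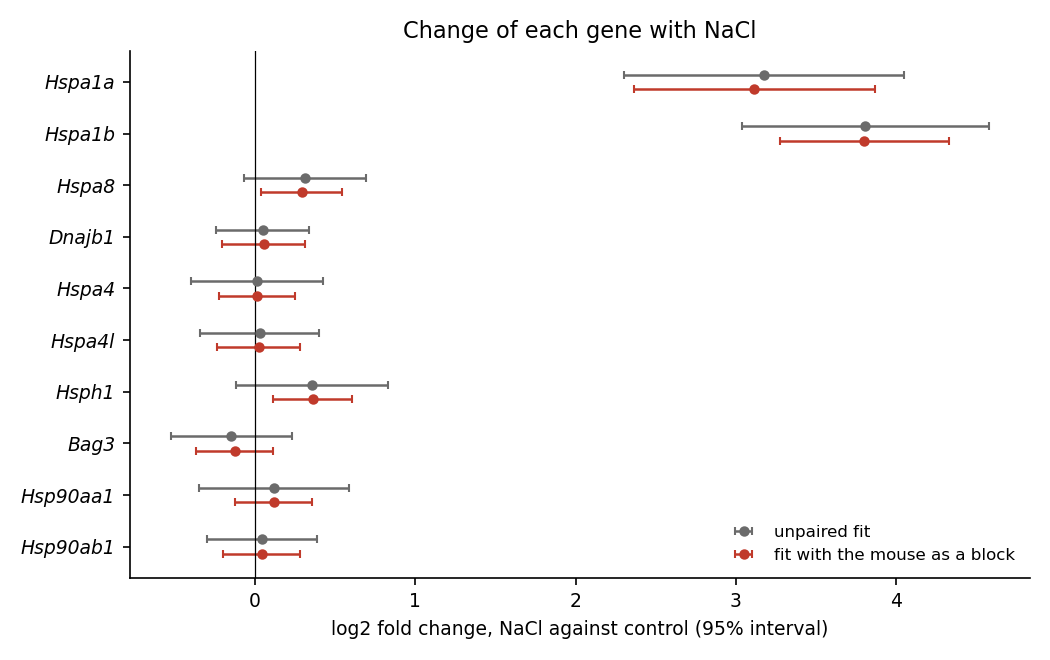
Log2 fold change of each heat shock gene, NaCl against control, with its 95% interval, in the unpaired fit (grey) and in the fit with the mouse as a block (red). The intervals of Hspa1a and Hspa1b lie above 2, those of Dnajb1, Hspa4, Hspa4l, Bag3 and both HSP90 genes span 0 in both fits, and those of Hspa8 and Hsph1 span 0 in the unpaired fit only.

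**Figure D4:**
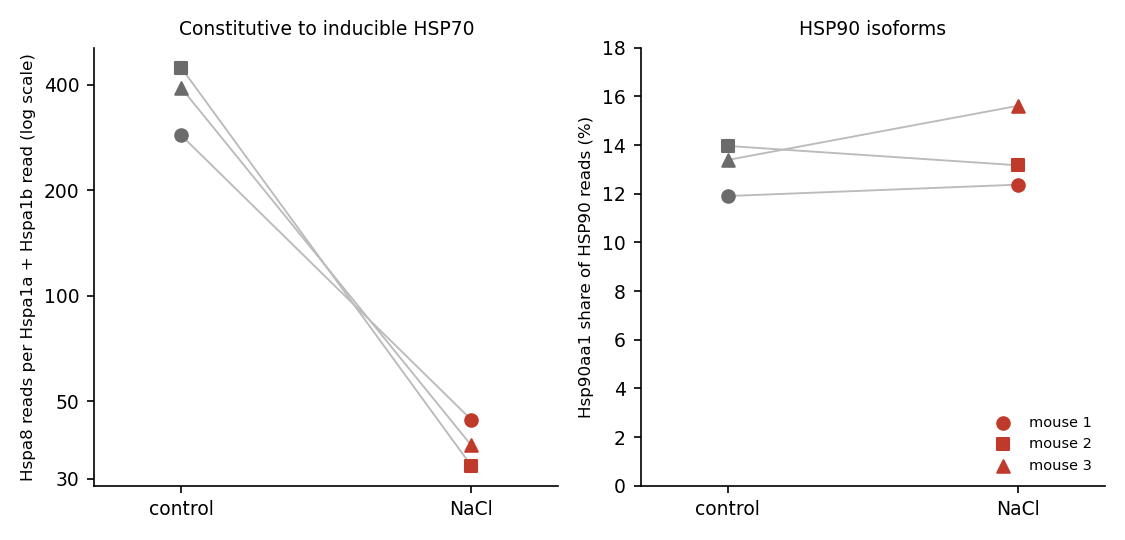
Left, counted Hspa8 reads for each counted read of Hspa1a plus Hspa1b (log axis), with reads from shared windows left out. Right, share of Hsp90aa1 in the reads of both HSP90 genes (%). Each marker is a library, grey for control and red for NaCl, and lines join the libraries of 1 mouse (circle, mouse 1; square, mouse 2; triangle, mouse 3). The left ratio is lower with NaCl in each mouse, between 32.7 and 44.3, and the right share stays between 11.9% and 15.6%.

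Next, 11 lists of related genes were read beside the members. Of the 80 chaperone and heat shock genes tested on 10 of them, 0 passed the test in edgeR without the block, and with the block 1 of 80 rose and 4 of 80 fell, against 4.60% and 4.30% of all genes in that fit. The other cytosolic HSP70 genes gave no call among 4 tested, with Hspa14, a ribosome-associated HSP70 and the most abundant of them, at a log2 fold change of 0.02. Of the 12 other J-domain genes, 0 passed without the block. With it, Dnajc9, a histone chaperone, rose (log2 fold change 0.66, adjusted p = 0.000857) and Dnajb4, a heat-inducible relative of Dnajb1, fell (-0.44, adjusted p = 0.0204), while the most abundant, Dnajc5, had 0.01. None of the 8 exchange and regulatory genes (Bag6, 0.0044), the 16 HSP90 cochaperones (Cdc37, which loads kinases on HSP90, 0.08) or the 14 subunits of the chaperonin TRiC and of prefoldin (Cct2, -0.08) passed in either fit.

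Genes listed as further textbook targets of HSF1 were also read, although the activity of HSF1 itself was not measured. Among them, Serpinh1 with 13 reads over all libraries and Cryab with 19 lay near the count filter. Of 14 other textbook HSF1 targets tested, none passed without the block and 1, Dnajb4, fell with it, where 4.30% of all genes fell. Their median log2 fold change was 0.06, and the most abundant, the ubiquitin gene Ubb, had 0.33 (adjusted p = 0.606 in edgeR), with mouse 2 at 0.83 and mouse 3 at -0.15. The 4 heat shock factors and regulators tested gave no call, Hsbp1 being the most abundant at -0.02. Small heat shock proteins were scarce, with 4 of 9 reaching the count filter, and the most abundant, Hspb6, went from 5.19 ± 1.99 to 7.88 ± 0.889 CPM (SD, n = 3; log2 fold change 0.63, adjusted p = 0.391 in edgeR).

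The lists also held HSP70 and HSP90 relatives of other compartments. Among 7 mitochondrial chaperones none passed in either fit, and Hspa9, the mitochondrial HSP70, had a log2 fold change of -0.31 (adjusted p = 0.593 in edgeR). Of 7 genes of the endoplasmic reticulum, 0 passed without the block and 3 fell with it, where 4.30% of all genes fell. Hspa5, the HSP70 of that compartment, had 748 ± 114 CPM in controls and 540 ± 30.7 with NaCl (SD, n = 3), and it fell by 0.46 on the log2 scale with the block (adjusted p = 0.0133). Hsp90b1, its HSP90, fell by 0.54 (adjusted p = 0.0110) and Dnajc3, a J-domain protein, by 0.42 (adjusted p = 0.0238). All 3 were lower in 3 of 3 mice. They were named for passing the fit with the mouse as a block, so this direction adds no separate support.

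Of 7 osmotic response genes 2 rose without the block, 4 with it and 3 in DESeq2, against 0.478%, 4.60% and 1.54% of all genes. Slc6a12, the betaine transporter, had 0.424 ± 0.0532 CPM in controls, from only 4, 4 and 9 reads, and 71.1 ± 30.8 with NaCl. Its log2 fold change was 7.34 (95% interval 6.42 to 8.26, adjusted p = 6.35e-05 in edgeR). Slc5a3, the myo-inositol transporter, had 5.88 ± 1.57 and 100.0 ± 14.6 CPM (log2 fold change 4.07, adjusted p = 6.35e-05 in edgeR). With the block, Akr1b3, the aldose reductase that makes sorbitol, rose by 0.74 (adjusted p = 0.00135) and the amino acid transporter Slc38a2 by 0.59 (adjusted p = 0.00257). The taurine transporter Slc6a6, the most abundant, had 0.08.

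**Figure D5:**
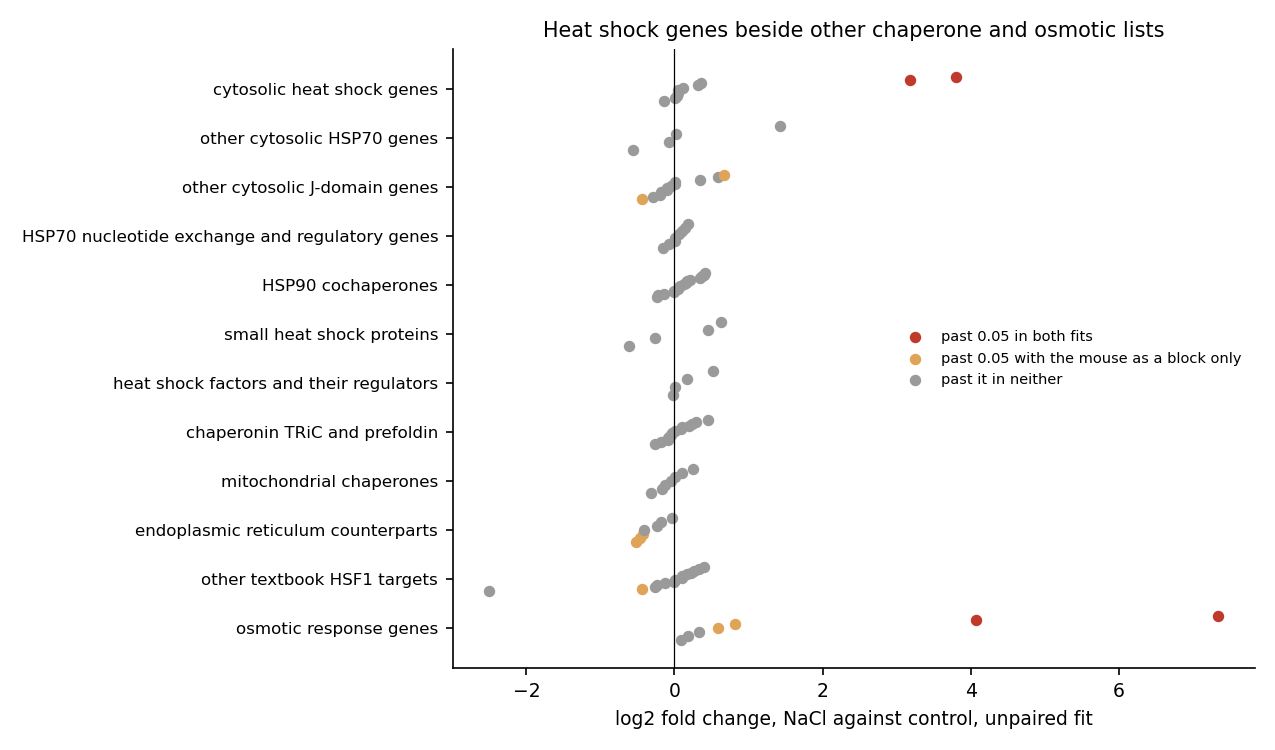
Log2 fold change, NaCl against control in the unpaired fit, of every tested gene of each list, with 1 point per gene, coloured red where it passed the threshold in both fits, orange where it passed only with the mouse as a block, and grey where it passed in neither. Red points stand out in the rows of the cytosolic heat shock genes (Hspa1a at 3.17 and Hspa1b at 3.81) and the osmotic response genes (Slc5a3 at 4.07 and Slc6a12 at 7.34).

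Genes with a profile like that of the inducible pair were sought among 9923 genes with a mean of at least 50 counts, by the root mean square difference of log2 CPM over the 6 libraries, each profile centred on its mean. The 5 most alike were Ifitm6 (difference 0.348), Slc5a3 (0.444), Ifitm3 (0.659), Mrps6 (0.700) and Plcb4 (0.708). Ifitm6 and Ifitm3 encode membrane proteins that restrict viral entry, MRPS6 is a mitochondrial ribosomal protein, and PLCB4 a phospholipase. Slc5a3 and Mrps6 overlap on the same strand, so their reads cannot be fully told apart. Ifitm6 went from 2.39, 2.81 and 2.62 CPM to 16.2, 49.2 and 19.4 CPM. Mouse 2 had the largest rise, as for Hspa1a plus Hspa1b, but Ifitm6 was picked for this likeness, so it is no separate result. The difference between Hspa1a and Hspa1b was 0.490 by the same measure, and the other 8 members differed from their sum by 1.58 (Hsph1) to 1.83 (Bag3). The measure is a description over 6 libraries of 3 mice, and the libraries share their treatment.

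The libraries held 4088065 (NaCl replicate 3) to 20123570 (control replicate 3) counted reads, so that inducible HSP70 rested on 17 to 33 reads per control library. All 10 macrophage markers were measured. Of these, Lyz2 and Cd14 rose with NaCl and 0 fell without the block, against 0.478% and 0.176% of all genes tested. With the block 3 rose (Csf1r in addition) and 2 fell (Mrc1 and Mertk), against 4.60% and 4.30% of all genes. The summed level of the 10 macrophage markers was 15248 to 17198 CPM in controls and 24228 to 31593 CPM with NaCl. The summed level was 249 to 542 against 271 to 392 CPM for 10 neutrophil markers, 129 to 281 against 103 to 324 CPM for 5 monocyte markers, 785 to 991 against 747 to 1028 CPM for 8 dendritic cell markers, 1.14 to 1.63 against 2.18 to 2.68 CPM for the 2 lymphocyte markers tested of 8, and 0.906 to 4.34 against 0.447 to 3.59 CPM for the 3 stromal markers tested of 6. None of the 6 erythroid markers reached the count filter, and the lymphocyte gene Cd3e had no read. No marker of these other cell types was called without the block. With it, 2 of 10 neutrophil markers were lower, where 4.30% of all genes fell, and 1 of 5 monocyte markers was higher, where 4.60% rose. The part of these markers in the results was not tested.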

How the data were processed

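BMDM libraries of polyadenylated RNA from 3 mice, each untreated and NaCl-treated, were analysed. Single-end 75 bp reads were trimmed by the authors (fastp 0.20.0) and aligned (STAR 2.7.10b), and the gene counts of STAR were deposited as raw counts. They also deposited a normalized signal, which was each count divided by 1 DESeq2 size factor per library, and it was used here for gene symbols only. The methods name mm10 with GENCODE vM32, an annotation of a different build. Exon lengths and shared 75-base windows were taken from GENCODE M21, and promoters from RefSeq.

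Counts of 15903 genes with a total of at least 10 were tested in edgeR 4.0.16 (quasi-likelihood test, TMM, NaCl against control, no block, Benjamini-Hochberg threshold 0.05), as were the counts with Hspa1a and Hspa1b summed. CPM used TMM-scaled library sizes, and profiles log2 CPM with a prior count of 2. Ratios within libraries were tested by exact permutation over the 20 arrangements of the libraries, which ignores the pairing, and by exact sign flips within mice. Intervals of single ratios are exact (Clopper-Pearson) and cover counting error only.

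The mouse numbers name the animal in both groups. Deviations of same-mouse libraries from their group means correlated at 0.426, 0.151 and 0.217 for mice 1, 2 and 3, and those of other pairs at -0.350 to 0.124. For mouse 2 the margin was small, with 0.124 between its NaCl library and control library 3. The pairing was therefore taken from the mouse numbers and does not rest on these correlations. Values from a fit that adds the mouse (replicate block) are given where a call changes. Other alternatives were DESeq2 1.42.0, limma-voom (limma 3.58.1) with the block, 2 other scalings, 2 other count filters, and leaving out each library or mouse. The scripts were tested on simulated data.

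The members and lists were chosen with earlier results of these data known. Named were all 10 members and their HSP70 sum, from each other list the genes past the threshold, up to 3 past it only with the block and the most abundant gene, and the 5 genes most like the sum with a mean of at least 50 counts. Marker lists served as checks.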

Additional observations from a re-analysis of the deposited data

How the results depend on the processing

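Over the 17 alternative fits, the count of members that rose stayed at 2 except when 1 library was left out. There it ranged from 1 to 2, being 1 without control replicate 2, control replicate 3 or NaCl replicate 3, where Hspa1a was lost. With both libraries of a mouse left out it was 2, and 0 members fell in any fit. Of these fits, the share of all genes called is given only for edgeR with the block and DESeq2 without it. The member counts of the others therefore cannot be weighed against it. The sum of Hspa1a and Hspa1b gave log2 fold changes of 3.33 to 3.91 without single libraries and 3.33 to 3.99 without single mice, always past the threshold, and 3.63 with the replicate block. Of the 87 genes tested on the other lists, 2 were called without the block and 9 with it in edgeR. Without the block 2.30% rose and 0 fell, against 0.478% and 0.176% of all genes. With it 5.75% rose and 4.60% fell, against 4.60% and 4.30% of all genes. DESeq2 and limma-voom with the block also called 9. The count was 6 with a minimum total count of 1 and 2 to 3 without single libraries. With the block, it was 6, 10 and 15 without mouse 1, 2 and 3. For these further fits the share of all genes is not given here. The replicate block changed no call among the 10 members. The difference in the log2 ratio of Hsp90aa1 to Hsp90ab1 was 0.07 and ranged from -0.038 to 0.16 when libraries were left out, being -0.0014 without control replicate 1 and -0.038 without NaCl replicate 3. That of Hspa1a plus Hspa1b to Hspa8 ranged from 3.15 to 3.47. The cause of these shifts was not tested. Control libraries with 5 to 9 reads on Hspa1a limit the precision of its fold change. Per 1000 windows found in 1 gene alone, chosen after the data were seen, the NaCl level was 4.15 in place of 1.55 CPM per kb for Hspa1a and 14.6 in place of 6.27 for Hspa1b.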
